A study of Mus musculus with 18 samples.

Results

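The genes described here are 8 genes of the smooth-muscle type contractile apparatus: Acta2, Tpm1, Tpm2, Cnn1, Cnn2, Cald1, Tagln and Myl9. They were chosen by name, as the non-control probes that the array files annotate to these symbols. The 8 genes were 8 of 24968 genes tested and were read by 17 probes in 26 spots, all of which passed the filter on dim probes. Each gene is represented by its brightest probe, and the other probes are described separately.

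The study hybridised 18 two-colour mouse expression arrays to compare induced pluripotent stem cells (iPSC) deficient for the de novo DNA methyltransferases Dnmt3a and Dnmt3b with control iPSC. The tested cells were 3 Dnmt3ab deficient iPSC clones (8, A6 and B2), and RNA of the same 3 clones when they showed some signs of differentiation, called differentiating clones here. The references were 4 control iPSC lines (3, 4, 5 and 6), V6.5 embryonic stem cells (ESC) and mouse embryonic fibroblasts (MEF). The labels mark the differentiating clones, V6.5 ESC and MEF as left out of the study's own statistics, and they state neither how the control lines relate to the deficient clones nor whether repeat arrays of a line came from separate cultures. All iPSC lines had been grown on irradiated MEF feeders and then passaged 1 or 2 times on gelatin without fresh feeders, so fibroblast RNA could be in any of these samples. In bulk RNA, fewer cells of a type and less RNA per cell cannot be told apart.

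In smooth muscle, alpha-actin (Acta2) forms thin filaments on which tropomyosins (Tpm1, Tpm2) lie, calponins (Cnn1, Cnn2) and caldesmon (Cald1) bind those filaments and restrain the myosin motor, transgelin (Tagln) binds and bundles actin, and the regulatory light chain Myl9 switches the motor when it is phosphorylated. The genes are not confined to smooth muscle: fibroblasts in culture carry the same proteins in their stress fibres. Many of them are known targets of serum response factor (SRF), which binds a sequence called the CArG box and works with the myocardin-related coactivators that sense free actin. The silencing of such fibroblast genes is an early step when fibroblasts are reprogrammed to iPSC.

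Upstream windows of 250 bases before the annotated start were taken from RefSeq (build GRCm38.p6) for 7 of the 8 genes; Tagln had no entry in the table used. The windows were searched on both strands for the CArG box, 10 bases with 6 inner positions of A or T, and for the same motif with 1 deviating inner base. An exact match was present in 1.47% of all 32851 windows, and a match with at most 1 deviating base in 8.59%. Among the 7 genes, 2 held an exact match (Cnn2, 56 bases before the start, and Myl9, 161 bases before it). Myl9 held a further match with 1 deviating base, and Acta2 held 2 such matches, 84 and 34 bases before the start. The windows of Cnn1, Tpm1, Tpm2 and Cald1 (which has 2 entries) held no match of either kind, which says only that these letters are not in these windows. The 3 windows with matches are shown, with the matches in capitals and each read 5′ to 3′ on the gene's strand. Those of Cnn2 and Myl9 carry the motif that SRF binds, and that of Acta2 carries it only with 1 deviating inner base. Acta2 lies on the minus strand at chr19:34255374-34255623, Cnn2 on the plus strand at chr10:79988350-79988599 and Myl9 on the plus strand at chr2:156775214-156775463.
Acta2: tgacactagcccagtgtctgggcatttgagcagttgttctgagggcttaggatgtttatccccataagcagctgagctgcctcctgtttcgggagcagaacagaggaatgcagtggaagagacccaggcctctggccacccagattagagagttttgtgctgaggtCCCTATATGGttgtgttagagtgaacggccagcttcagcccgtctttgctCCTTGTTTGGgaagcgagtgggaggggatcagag
Cnn2: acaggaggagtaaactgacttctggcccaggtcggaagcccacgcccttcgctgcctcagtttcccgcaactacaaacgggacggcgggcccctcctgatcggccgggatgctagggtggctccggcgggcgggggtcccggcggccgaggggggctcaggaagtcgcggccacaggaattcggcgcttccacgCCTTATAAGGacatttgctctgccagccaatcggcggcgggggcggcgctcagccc
Myl9: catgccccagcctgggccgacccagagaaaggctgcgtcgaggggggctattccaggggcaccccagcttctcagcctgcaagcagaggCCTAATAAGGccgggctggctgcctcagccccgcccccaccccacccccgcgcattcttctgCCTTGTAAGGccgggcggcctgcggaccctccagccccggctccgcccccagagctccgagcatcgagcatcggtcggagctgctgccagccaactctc

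Levels are log2 signals, and a difference of 1 on this scale is a 2-fold change; levels are compared within a probe only, since probes differ in how well they bind. Deficient iPSC shared arrays with V6.5 ESC or MEF (6 arrays on 2 slides, scanned on the first of 2 days), and the differentiating clones shared arrays with the control lines (12 arrays on 3 slides, the second day, 1 clone to a slide). Deficient against control and differentiating against deficient therefore cannot be told apart from the scan day. Between 69.7% and 92.6% of spots were well above background in a channel, no spot was saturated, and the number of arrays limits the precision. Dnmt3a signal averaged 9.53 in deficient and 11.02 in control iPSC on probe A_52_P76146 and was lower in deficient iPSC on all 3 of its probes, while the single Dnmt3b probe averaged 13.08 in deficient and 13.39 in control iPSC; which exons the probes read relative to the deleted parts is not stated, so this is a weak check of the labels.

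All 8 genes were far higher in MEF than in any pluripotent line, and most were lower in the deficient cells, in both states, than in the control iPSC. On the probe used, Acta2, the alpha-actin, stood apart with nearly the same signal in all iPSC lines. This did not hold for every Acta2 probe. The signals of the probe used were 13.67, 13.87 and 13.74 in differentiating clones 8, A6 and B2, 13.84, 14.06 and 13.96 in the deficient iPSC of the same clones, 14.06, 14.10, 13.86 and 13.70 in control lines 3 to 6, 13.34 in V6.5 ESC and 17.14 in MEF. All 10 iPSC values lay within 0.43 and the groups overlapped. The MEF signal was 3.21 above the control mean.

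Tagln, the actin-bundling protein, had signals of 14.13, 13.81 and 13.86 in differentiating clones, 13.59, 13.99 and 13.90 in deficient iPSC, 15.47, 15.53, 15.50 and 14.62 in control lines 3 to 6, 13.51 in V6.5 ESC and 18.21 in MEF. Every deficient and differentiating value was below every control value, and control line 6 was the lowest control. Cald1, the caldesmon gene, had signals of 9.14, 9.14 and 8.98 in differentiating clones, 8.41, 8.64 and 8.63 in deficient iPSC, 10.07, 10.20, 9.92 and 9.65 in control lines, 8.85 in V6.5 ESC and 12.37 in MEF. The 3 kinds of iPSC sample did not overlap for Cald1, with deficient iPSC lowest.

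Cnn1, calponin 1, had signals of 11.21, 11.24 and 11.15 in differentiating clones, 11.64, 12.05 and 12.15 in deficient iPSC, 12.80, 13.24, 12.93 and 12.50 in control lines, 10.72 in V6.5 ESC and 16.95 in MEF. Here too the 3 kinds did not overlap, but the differentiating clones were lowest. Cnn2, the more broadly expressed calponin, had signals of 12.10, 11.92 and 11.80 in differentiating clones, 12.14, 12.69 and 12.62 in deficient iPSC, 12.49, 12.63, 12.38 and 12.11 in control lines, 11.47 in V6.5 ESC and 15.93 in MEF. The deficient and control values of Cnn2 overlapped, and the differentiating clones lay just below both.

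On the probes used, the tropomyosins differed from each other. Tpm1 had signals of 12.86, 12.70 and 12.54 in differentiating clones, 13.12, 13.46 and 13.35 in deficient iPSC, 13.76, 13.97, 13.77 and 13.31 in control lines, 11.80 in V6.5 ESC and 17.04 in MEF. Tpm2 had signals of 12.70, 12.42 and 12.28 in differentiating clones, 12.09, 12.59 and 12.37 in deficient iPSC, 13.41, 13.64, 13.62 and 12.82 in control lines, 11.40 in V6.5 ESC and 16.73 in MEF. For Tpm1 the deficient iPSC lay between the differentiating clones and most of the controls, whereas for Tpm2 both deficient states lay together below all controls. This contrast is one of the Tpm1 probe used, since on the other Tpm1 probes both deficient states also lay below all controls. Myl9, the myosin regulatory light chain, followed Tpm2, with 12.81, 12.81 and 12.64 in differentiating clones, 12.41, 13.06 and 12.83 in deficient iPSC, 13.68, 13.95, 13.90 and 13.09 in control lines, 11.39 in V6.5 ESC and 17.71 in MEF. Its highest deficient and lowest control value were only 0.03 apart (13.06 in clone A6 and 13.09 in line 6).

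**Figure D1:**
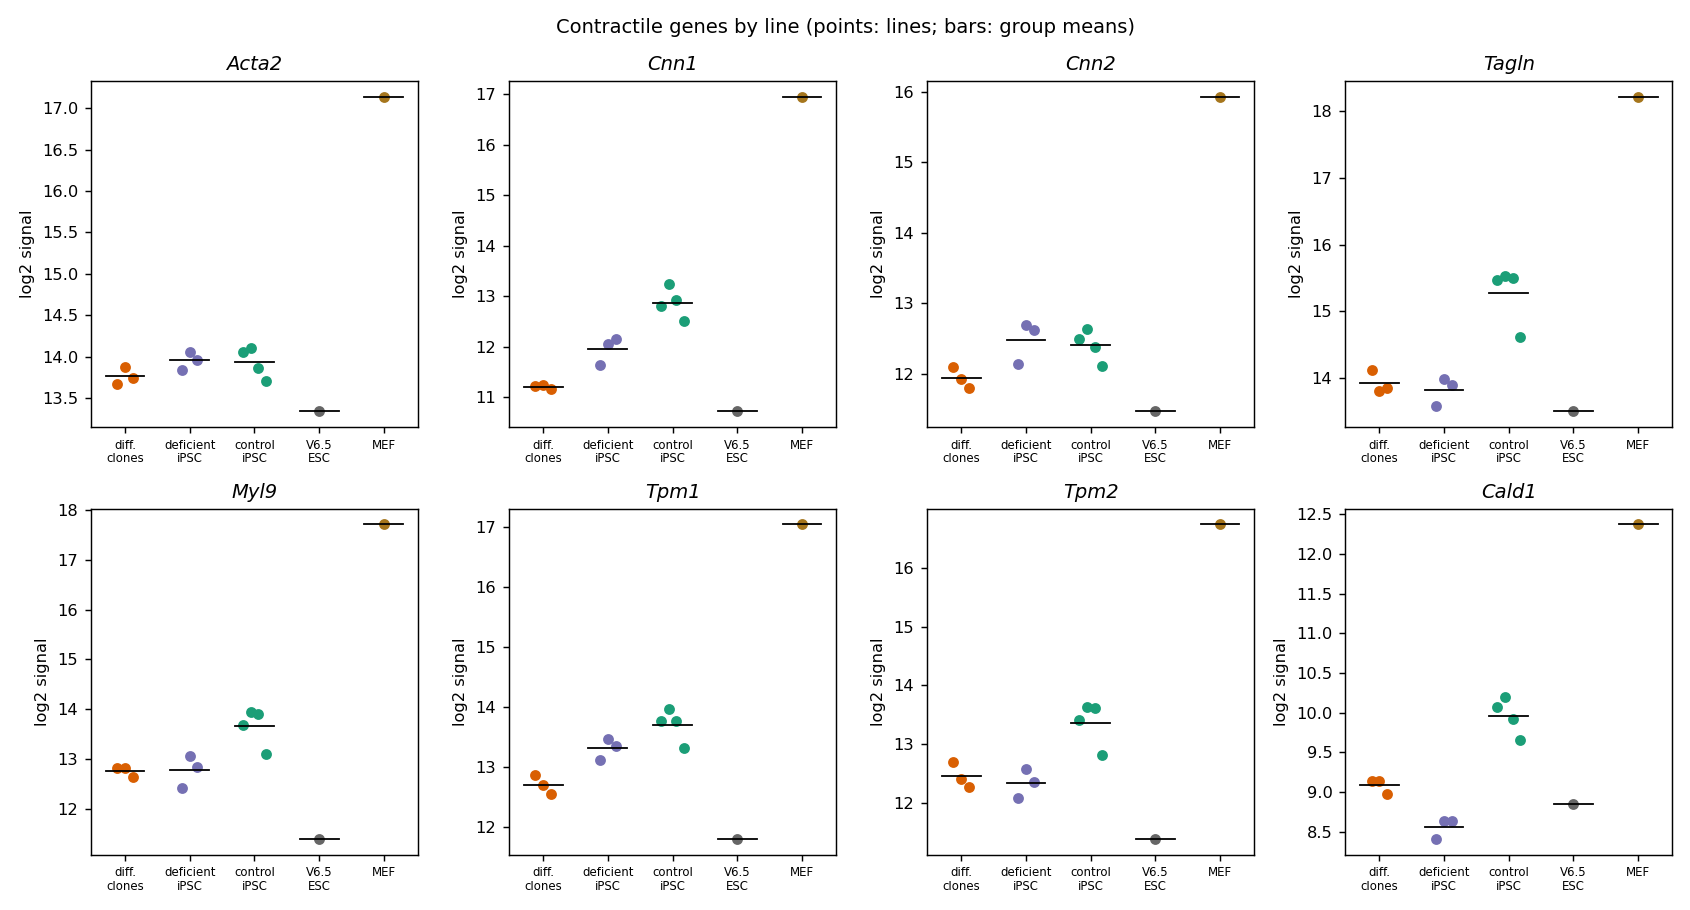
Log2 signal of the 8 contractile genes (1 panel each) in differentiating clones (diff. clones on the axis), deficient iPSC, control iPSC, V6.5 ESC and MEF; points are lines, V6.5 ESC and MEF are 1 RNA each, and bars are group means. MEF was highest for every gene, and Tagln shows 3 controls near 15.5 with line 6 at 14.62, all above the deficient cells.

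Deficient iPSC against control iPSC is the comparison the series was made for. By limma on 1 value per line, with p-values adjusted over all genes by the Benjamini-Hochberg method and called at an adjusted p under 0.05, 5 of the 8 genes fell, while 9.98% of all genes were called higher, 19.6% lower and 29.6% in either direction. The 5 that fell were Tagln, by 1.46 ± 0.234 on the log2 scale (SE, n = 3 deficient and 4 control lines, limma adjusted p = 0.00564), Cald1 (-1.40 ± 0.136, limma adjusted p = 0.00163), Tpm2 (-1.02 ± 0.216, limma adjusted p = 0.0135), Cnn1 (-0.92 ± 0.189, limma adjusted p = 0.0122) and Myl9 (-0.89 ± 0.237, limma adjusted p = 0.0291). The signals of these 5 were 1.85- to 2.74-fold lower in deficient iPSC, and their deficient and control values did not overlap; 27.7% of all genes were lower, and 13.5% higher, without overlap. Tpm1 differed by -0.39 ± 0.161 (limma adjusted p = 0.105), Acta2 by 0.02 ± 0.112 (limma adjusted p = 0.898) and Cnn2 by 0.08 ± 0.166 (limma adjusted p = 0.749), none of which passed. The median difference over the 8 genes was -0.90, against -0.06 over all genes. Leaving out 1 line at a time, 4 to 6 of the 8 genes were called lower, while 15% to 35.1% of all genes were called in either direction. Myl9 lost its call in 5 of these 7 fits, without clone 8, clone B2 or control line 3, 4 or 5 (limma adjusted p = 0.0654 to 0.0848), and Tpm1 gained one without line 6 (limma adjusted p = 0.0111). With the mean of all probes of a gene in place of the brightest, Cald1 differed by -0.40 and lost its call (limma adjusted p = 0.0845), and Tpm1 differed by -1.04 and gained one (limma adjusted p = 0.00362).

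How far several of these genes fell depended on which RNA shared the array with the deficient one. Each deficient clone was read once in the Cy5 channel beside MEF and once in the Cy3 channel beside V6.5 ESC, so partner and dye cannot be told apart here. Tpm1 read 13.95, 13.98 and 14 in deficient clones 8, A6 and B2 beside MEF, and 12.28, 12.95 and 12.70 in the same RNAs beside V6.5 ESC. The mean gap was 1.33 for Tpm1, 1.08 for Cnn1, 1.00 for Tpm2, 0.67 for Myl9 and 0.65 for Cnn2, against 0.16 for Acta2, -0.14 for Cald1 and -0.43 for Tagln. Such gaps were rare among the genes tested: the 5th to 95th percentile ran from -0.26 to 0.20, and a gap of at least 1 in either direction occurred in 73 genes, or 0.293%.

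Tagln and Cald1 kept their size with either reading. Tagln differed from control by -1.43 (limma adjusted p = 0.0067) with the readings beside V6.5 ESC alone and by -1.47 (limma adjusted p = 0.00506) with those beside MEF alone, and Cald1 by -1.25 (limma adjusted p = 0.00233) and -1.52 (limma adjusted p = 0.000978). Cnn1 differed by -1.58 (limma adjusted p = 0.00395) with readings beside V6.5 ESC but by -0.42 (limma adjusted p = 0.105) with readings beside MEF. Tpm2 differed by -1.62 and -0.56, and Myl9 by -1.37 and -0.51, in the same order, and neither passed with the readings beside MEF (limma adjusted p = 0.0655 and 0.101). Tpm1 changed direction, with -1.20 (limma adjusted p = 0.00789) beside V6.5 ESC and 0.23 (limma adjusted p = 0.278) beside MEF. The number of the 8 genes called lower was 6 with the readings beside V6.5 ESC, where 23.1% of all genes were called in either direction, 41.9% of these higher. It was 2 with those beside MEF, where 32.4% of all genes were called, 30.5% of these higher. The second count is near the share of all genes called lower. These splits were added after the values had been seen.

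**Figure D2:**
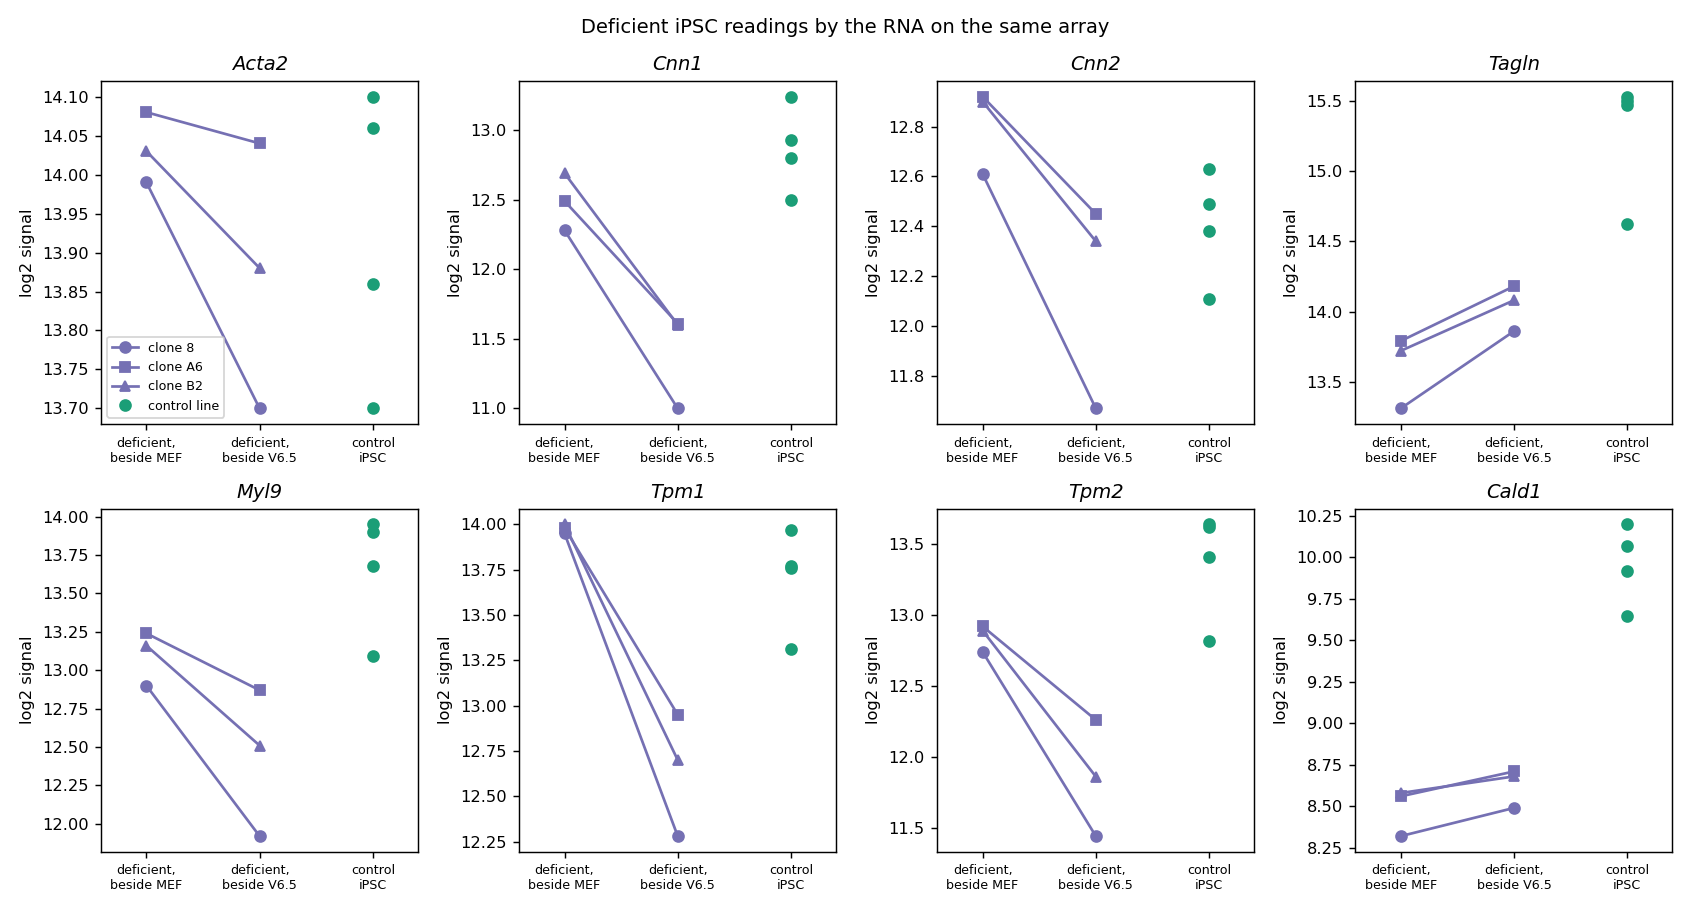
Log2 signal of deficient clones 8, A6 and B2 read beside MEF (Cy5) and beside V6.5 ESC (Cy3), joined by clone and shown as read, without the dye term, with the 4 control line values at the right; 1 panel per gene. Tpm1 read between 13.95 and 14 beside MEF and between 12.28 and 12.95 beside V6.5 ESC, whereas Tagln and Cald1 lay below every control line with either partner.

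The scaling between arrays mattered as well. Without it the median of all genes in this comparison moved to 0.35, against -0.06 with it. By limma 10 genes in all and 0 of the 8 were called. At an unadjusted p under 0.05 were 5 of the 8 and 4395 of all 24968 genes. The median of the 8 was then -0.65.

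In differentiating clones against control iPSC, both RNAs lay on the same arrays, so scan day does not separate them. Cnn1, Tagln, Tpm1 and Cald1 fell, 4 of the 8 genes, where 1.04% of all genes were called higher, 1.3% lower and 2.34% in either direction. Cnn1 fell by 1.67 ± 0.159 (SE, n = 3 clones and 4 lines, limma adjusted p = 0.0136), or 3.18-fold. Tagln fell by 1.35 ± 0.234 (limma adjusted p = 0.038), Tpm1 by 1.00 ± 0.161 (limma adjusted p = 0.0315) and Cald1 by 0.87 ± 0.133 (limma adjusted p = 0.0273). Tpm2 (-0.91 ± 0.213, limma adjusted p = 0.0839), Myl9 (-0.90 ± 0.205, limma adjusted p = 0.0777), Cnn2 (-0.46 ± 0.134, limma adjusted p = 0.141) and Acta2 (-0.17 ± 0.112, limma adjusted p = 0.64) did not pass. The values did not overlap between differentiating clones and controls for 7 genes, all but Acta2, while 7.03% of all genes were lower, and 6.9% higher, without overlap.

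The direction was the same within the arrays. On each of the 12 arrays the differentiating clone was below the control line for Cnn1, Tagln, Myl9, Tpm1, Tpm2 and Cald1, and on 11 of them for Cnn2 and 10 for Acta2. These ratios hold no dye term, and the differentiating clone was in Cy3 on most of the arrays, always so against control line 3. For Cnn1 the log2 ratios ran from -2.32 to -0.48, and the array of clone 8 with control line 5 gave the weakest ratio. The same array gave the weakest ratio for every other gene except Acta2, such as Tagln (-0.16) and Cald1 (-0.21), and the only ratio above 0 for Cnn2 (0.08). Tagln readings of differentiating clone 8 ran from 13.79 to 15.28 over 4 channels (SD 0.707), against an SD of 0.117 in A6 and 0.149 in B2. On the slide of clone 8, Cnn1 averaged -1.59 ± 0.81 (SD over 4 arrays, not independent samples), on that of A6 -1.82 ± 0.339 and on that of B2 -1.94 ± 0.293. The calls changed when single lines were left out: 0 of the 8 genes was called by limma without clone A6, without clone B2 or without control line 3, 1 without line 4 or line 5, 3 without clone 8, and 7 without line 6. In each of these fits at least 7 of the 8 genes had an unadjusted p under 0.05, where 2821 to 4763 of all 24968 genes did. The number of all genes called ran from 0 to 1521. The Cnn1 difference itself ran from -1.79 to -1.55 over these fits.

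In the same clones, differentiating against deficient, the genes did not move together. Cnn1 fell by 0.75 ± 0.124 (SE, 3 clones as pairs, limma adjusted p = 0.0157) and Tpm1 by 0.61 ± 0.128 (limma adjusted p = 0.0259), while Cald1 rose by 0.53 ± 0.0957 (limma adjusted p = 0.0188); 18.2% of all genes were called higher, 12.7% lower and 31% in either direction. Values did not overlap for Cald1, which was higher, and for Cnn1, Cnn2 and Tpm1, which were lower, and 32.7% of all genes were higher and 17.6% lower without overlap. The median over the 8 genes was -0.10, against 0.07 over all genes. Tagln (0.11 ± 0.153), Tpm2 (0.11 ± 0.167) and Myl9 (-0.01 ± 0.144) did not pass, nor did Cnn2 (-0.54 ± 0.17, limma adjusted p = 0.0652) or Acta2 (-0.19 ± 0.0653, limma adjusted p = 0.0802). Cald1 kept its call with either partner (0.41 with deficient readings beside V6.5 ESC and 0.68 beside MEF), though it was -0.18 without scaling between arrays and -0.37 as the mean of its probes, whereas Cnn1 differed by -0.24 (limma adjusted p = 0.245) and Tpm1 by 0.01 (limma adjusted p = 0.971) with the readings beside V6.5 ESC. With the readings beside V6.5 ESC, 0 of the 8 genes were called lower by limma, where 26.5% of all genes were called in either direction. At an unadjusted p under 0.05 were 2 of the 8 and 10766 of all 24968 genes. With the readings beside MEF, 6 of the 8 were called lower, where 33.1% of all genes were called in either direction. Without clone A6, 0 of the 8 genes and 1 gene in all was called by limma. In that fit 3 of the 8 and 7505 of all 24968 genes had an unadjusted p under 0.05. Without clone B2, 1 of the 8 was called lower and 1 higher, where 11.8% of all genes were called in either direction.

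**Figure D3:**
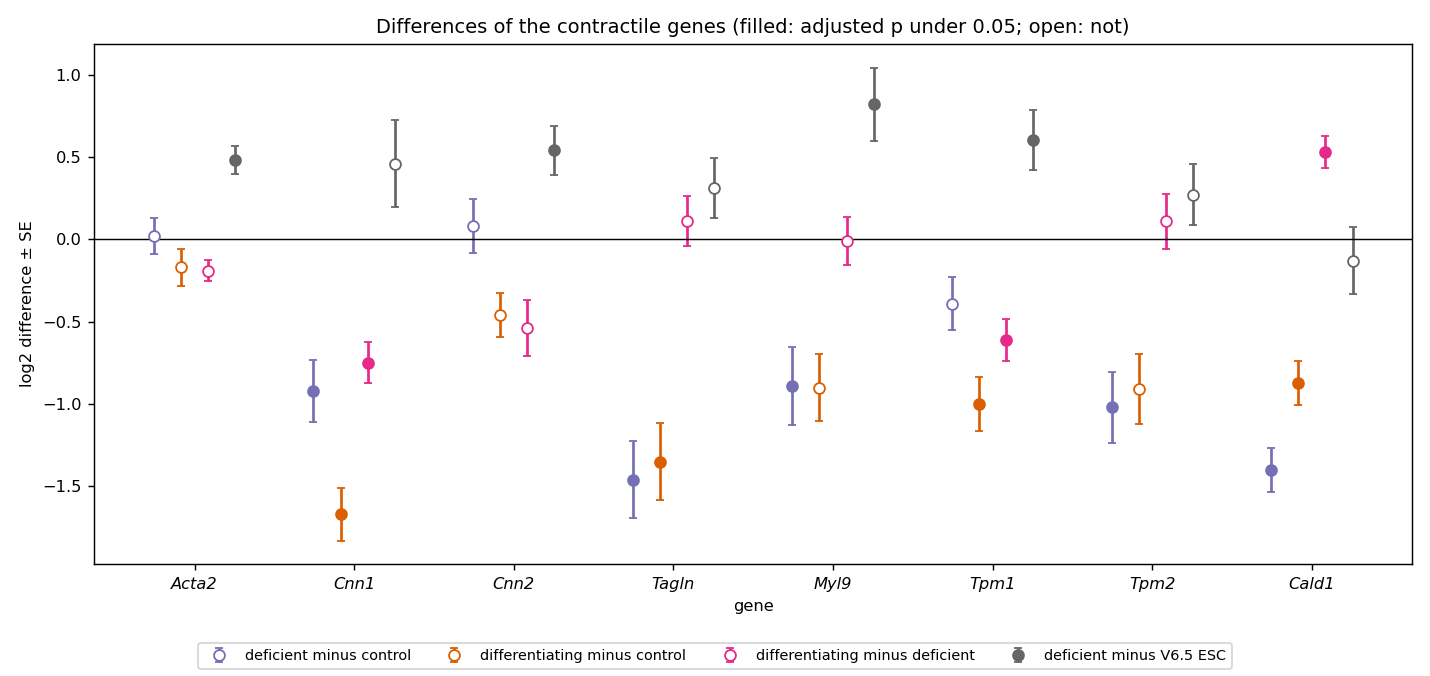
Log2 differences of the 8 genes with their SE in 4 comparisons, named in the legend as first group minus second; filled points passed an adjusted p under 0.05 by limma and open points did not. Tagln was near -1.4 in both deficient states against control, and Acta2, on the probe used, was near 0 in both.

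Deficient iPSC were set against V6.5 ESC on the 3 arrays where both were read, with V6.5 ESC always in Cy5. The SE here comes from array ratios pooled over all 18 arrays and, as V6.5 ESC and MEF are 1 RNA each, holds no spread between cultures of them. Of the 8 genes 4 rose, against 9.16% of all genes called higher, 4.45% lower and 13.6% in either direction: Acta2 (0.48 ± 0.0834, limma adjusted p = 0.00299), Cnn2 (0.54 ± 0.15, limma adjusted p = 0.0333), Myl9 (0.82 ± 0.222, limma adjusted p = 0.0295) and Tpm1 (0.60 ± 0.182, limma adjusted p = 0.0486). Cnn1 (0.46 ± 0.265), Tagln (0.31 ± 0.181), Tpm2 (0.27 ± 0.186) and Cald1 (-0.13 ± 0.204) did not pass. Clone 8 gave the lowest ratio for each of the 8 genes: for Myl9 the ratios, before the dye term, were 0.40 in clone 8, 1.53 in A6 and 1.17 in B2. Without clone A6 or without clone B2, 1 of the 8 genes was called, where 8.23% and 6.37% of all genes were called in either direction.

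Against MEF, all 8 genes fell in deficient iPSC, where 30.2% of all genes were called higher, 31.6% lower and 61.8% in either direction. The differences ran from -2.82 ± 0.182 for Tpm1 to -4.39 ± 0.222 for Myl9 (limma adjusted p = 3.08e-08 and 3.06e-09), that is 7.08- to 21-fold lower. These ratios use only the deficient readings beside MEF. Those were above the readings beside V6.5 ESC by 0.65 (Cnn2) to 1.33 (Tpm1) for Tpm1, Cnn1, Tpm2, Myl9 and Cnn2, while Tagln differed by -0.43. The sizes of the falls and their order thus hold for the readings beside MEF. The median over the 8 genes was -3.83, against -0.01 over all genes.

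The 4 control lines were not alike. Line 6 was the lowest control for all 8 genes, by 0.31 (Acta2) to 0.88 (Tagln) below the mean of lines 3 to 5, while line 6 was the lowest control for 31.4% of all genes. Line 6 was also the lowest control for 15 of 18 fibroblast markers. Without line 6, 6 of the 8 genes were called lower in deficient iPSC, where 35.1% of all genes were called in either direction.

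Of the 5 genes read by more than 1 probe, 4 had probes that disagreed (Acta2, Cald1, Tpm1 and Tagln). Probe positions are those of the array files (mouse build mm7), in which strand and the covered span are given but not the exon. On all 36962 probes tested, of which 29.6% were called, 10 of the 17 probes of the 8 genes fell in deficient against control iPSC and 1 rose.

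Acta2 had 5 probes, all on the minus strand of chromosome 19. The one used for the gene (A_51_P450957, chr19:33949738-33952992, which spans 3255 bases and so crosses at least 1 intron) differed by 0.02 between deficient and control iPSC. A_52_P420504 (chr19:33942803-33942862, printed in 10 spots) averaged 14.43 in deficient and 13.94 in control iPSC, a difference of 0.50 ± 0.292 that did not pass (limma adjusted p = 0.229). The same probe averaged 13.18 in differentiating clones and fell by 1.25 ± 0.0877 against deficient iPSC (limma adjusted p = 0.00483). A_52_P210078 (chr19:33942440-33942499) averaged 9.78 in deficient and 10.85 in control iPSC and fell by 1.07 ± 0.274 (limma adjusted p = 0.0253). In differentiating clones A_52_P210078 averaged 9.45 and differed from control iPSC by -1.39 ± 0.215 (limma adjusted p = 0.0302). So the flat pattern of Acta2 holds for the probe used and not for every probe. The array-partner gap also differed among these probes, with 1.71 for A_52_P420504 and -0.02 for A_52_P210078. The remaining pair read low signals: A_52_P239556 (chr19:33941939-33941997) fell by 0.25 (limma adjusted p = 0.0421), and A_52_P644232 (chr19:33954688-33954747) was not well above background in any iPSC or ESC channel.

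Cald1 had a pair of probes that moved in opposite directions. The probe used (A_51_P357573, chr6:34705041-34705100, plus strand) averaged 8.56 in deficient and 9.96 in control iPSC, while A_52_P599578 (chr6:34684677-34684736) averaged 9.06 in deficient and 8.44 in control iPSC and rose by 0.61 ± 0.181 (limma adjusted p = 0.0404). In differentiating clones the second probe averaged 7.79 and fell by 1.27 ± 0.0688 against deficient iPSC (limma adjusted p = 0.00454), where the first rose by 0.53. Neither Cald1 probe had a large array-partner gap (-0.14 and -0.01), and both were far higher in MEF (12.37 and 12.87). The statement that Cald1 was lower in deficient iPSC is thus one about the first probe.

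Tpm1 had 3 probes on the minus strand of chromosome 9. The probe used (A_52_P44949, chr9:67054531-67054590) differed by -0.39 between deficient and control iPSC and did not pass, while A_52_P532910 (chr9:67064287-67065357) fell by 1.12 ± 0.162 (limma adjusted p = 0.00386) and A_51_P325173 (chr9:67059621-67061176) fell by 1.60 ± 0.2 (limma adjusted p = 0.00252). A_52_P532910 and A_51_P325173 had array-partner gaps of 0.13 and -0.16, against 1.33 for the probe used. In differentiating against deficient iPSC the probe used fell by 0.61, while A_52_P532910 differed by -0.12 (limma adjusted p = 0.544). A_51_P325173 rose by 0.41 (limma adjusted p = 0.0228). A_51_P325173 was also the one probe of the 17 that was lower in MEF, at 11.93, than in the control iPSC, whose lines read 13.21, 13.27, 12.43 and 13.10. Tpm1 is known to make many tropomyosin forms from alternative exons, and which forms each probe reads is not given in the files.

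The probes of Tpm2 moved alike. A_52_P315976 (chr4:43532218-43532277) fell by 1.02 and A_52_P418477 (chr4:43533092-43533242) by 1.01 in deficient against control iPSC (limma adjusted p = 0.0128 and 0.0126 over all probes). The second Tagln probe (A_52_P517683, chr9:45888956-45889015) differed by -0.56 ± 0.255 and did not pass (limma adjusted p = 0.133), against -1.46 for the one used (A_51_P450527, chr9:45888137-45888196), and its array-partner gap was 1.39, against -0.43. It had no value on 1 of the 18 arrays, where its spot was left out as an outlier.

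**Figure D4:**
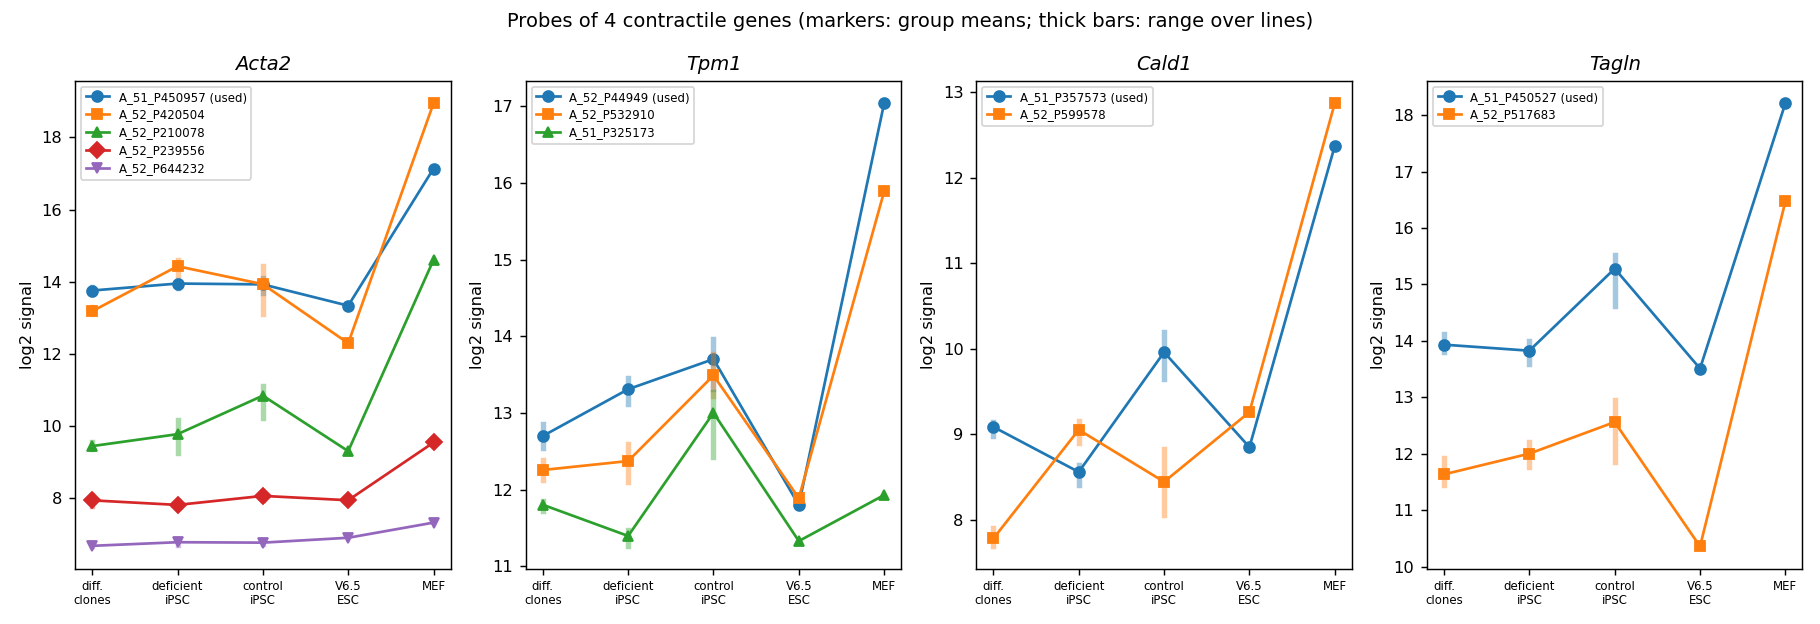
Log2 signal of each probe of Acta2, Tpm1, Cald1 and Tagln by group, with group means as markers and the range over lines as thick bars. The Cald1 probes cross between deficient and control iPSC, and 1 Tpm1 probe stays near 12 in MEF while the other 2 exceed 15.

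Other muscle and cytoskeletal genes were counted by lists that had been set by name. Of 13 genes more restricted to smooth muscle, 2 rose and 2 fell in deficient against control iPSC, with a median of 0.03. Together these are near the 29.6% of all genes called in either direction (9.98% higher and 19.6% lower). Those with the largest changes were Itga8, an integrin chain (-0.99 ± 0.233, limma adjusted p = 0.0189), Des, which encodes desmin (0.47 ± 0.113, limma adjusted p = 0.0207), and Ppp1r14a, an inhibitor of myosin phosphatase (0.36 ± 0.0728, limma adjusted p = 0.0114). Myh11, the smooth-muscle myosin heavy chain and the other of the 2 that fell (-0.31 ± 0.0892, limma adjusted p = 0.0359), read 7.63 to 7.75 in deficient iPSC, 7.84 to 8.13 in control iPSC and 10.5 in MEF. Actg2, the enteric actin, read 12.31 to 12.70 in deficient iPSC and 11.85 to 12.51 in control iPSC, which did not pass (limma adjusted p = 0.32). In differentiating clones against control iPSC 0 of the 13 passed by limma, where 2.34% of all genes were called. At an unadjusted p under 0.05 were 7 of the 13 and 3835 of all 24968 genes. Against deficient iPSC 1 rose and 1 fell in differentiating clones, beside 18.2% and 12.7% of all genes.

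Of 17 cytoskeletal genes related to the 8 genes, 4 rose and 7 fell in deficient against control iPSC (median -0.15), beside 9.98% and 19.6% of all genes. Those with the largest changes were Zyx, a focal adhesion protein (-0.92 ± 0.169, limma adjusted p = 0.00857), Myh9, a nonmuscle myosin heavy chain (-0.89 ± 0.109, limma adjusted p = 0.0028), and Myl12a, a nonmuscle regulatory light chain (-0.74 ± 0.0807, limma adjusted p = 0.00215). In differentiating clones against control iPSC, Vcl, which encodes vinculin (-0.77 ± 0.112, limma adjusted p = 0.0245), and Myl12a (-0.58 ± 0.0502, limma adjusted p = 0.0119) fell, 2 of the 17, where 1.3% of all genes were called lower.

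Of SRF and 6 of its coactivators and partners, 4 fell in deficient against control iPSC (median -0.60), where 19.6% of all genes were called lower and 9.98% higher. In differentiating clones against control iPSC 0 of the 7 passed by limma, where 2.34% of all genes were called. At an unadjusted p under 0.05 were 1 of the 7 and 3835 of all 24968 genes. Srf itself read 11.42, 11.25 and 11.16 in deficient iPSC and 11.64 to 12.16 in control iPSC, a fall of 0.66 ± 0.144 (limma adjusted p = 0.0152). It was 0.54 ± 0.104 higher in differentiating clones than in deficient iPSC (limma adjusted p = 0.0213). Cnn1 and Tpm1 were lower there on the probes used, but neither passed with the deficient readings beside V6.5 ESC. The other Tpm1 probes did not fall alike. Myocd, the smooth- and cardiac-muscle coactivator, read between 7.46 and 7.71 in all iPSC values and 7.64 in MEF. Of 12 other SRF target genes, 5 fell in deficient against control iPSC (median -0.52), with Thbs1 (-1.27 ± 0.112, limma adjusted p = 0.0015) the largest, and of 13 genes of the transforming growth factor beta pathway 1 fell, the receptor gene Tgfbr2 (-0.61 ± 0.0899, limma adjusted p = 0.00433). Both counts stand beside the 19.6% of all genes called lower.

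Most fibroblast markers fell, as most contractile genes did, in deficient against control iPSC. Of 18 such markers, 11 fell and 2 rose (median -0.89), beside 19.6% and 9.98% of all genes. The largest falls were S100a4 (-2.27 ± 0.212, limma adjusted p = 0.00161), Col1a1 (-1.98 ± 0.263, limma adjusted p = 0.00335) and Dcn (-1.71 ± 0.238, limma adjusted p = 0.00381). The 2 that rose were Twist1 (0.70 ± 0.102, limma adjusted p = 0.00428) and Fn1 (0.57 ± 0.121, limma adjusted p = 0.0135), both of which were higher in MEF. In differentiating clones against control iPSC 3 fell and 0 rose by limma, beside 1.3% and 1.04% of all genes, with Col3a1 the largest (-1.47 ± 0.256, limma adjusted p = 0.0387). Pdgfra (1.22), Sparc (0.91) and Twist1 (0.40) differed upward but did not pass (limma adjusted p = 0.148, 0.197 and 0.107). The summed signal of the 18 markers, on the log2 scale, ran from 16.59 to 17.05 in differentiating clones, 16.28 to 16.32 in deficient iPSC, 16.87 to 17.55 in control iPSC, and was 16.12 in V6.5 ESC and 21.15 in MEF. For the 8 contractile genes the summed signal ran from 15.67 to 15.86 in differentiating clones, 15.71 to 16.11 in deficient iPSC and 16.20 to 16.95 in control iPSC, and was 15.14 in V6.5 ESC and 20.07 in MEF. None of the 18 fibroblast markers was below background in any kind of iPSC. The part of fibroblast RNA in the differences of the contractile genes was not tested. In differentiating against deficient iPSC 8 fibroblast markers rose and 2 fell, beside 18.2% and 12.7% of all genes.

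The other marker lists were counted against the 29.6% of all genes called in deficient against control iPSC. The 4 simple-epithelium keratins all fell in deficient against control iPSC (median -2.57), led by Krt8 (-3.06 ± 0.244, limma adjusted p = 0.0013), and 6 of 10 pluripotency markers rose (median 0.56). In differentiating against deficient iPSC, 8 of 9 endoderm markers rose (median 1.99), where 18.2% of all genes were called higher. Of 7 mural cell markers 1 rose and 1 fell in deficient against control iPSC, and of 20 striated-muscle genes 3 rose and 3 fell, both shares near that of all genes; the mural marker Abcc9 was not well above background in any deficient iPSC or MEF channel. Their part in the results on the contractile genes was not tested.

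**Figure D5:**
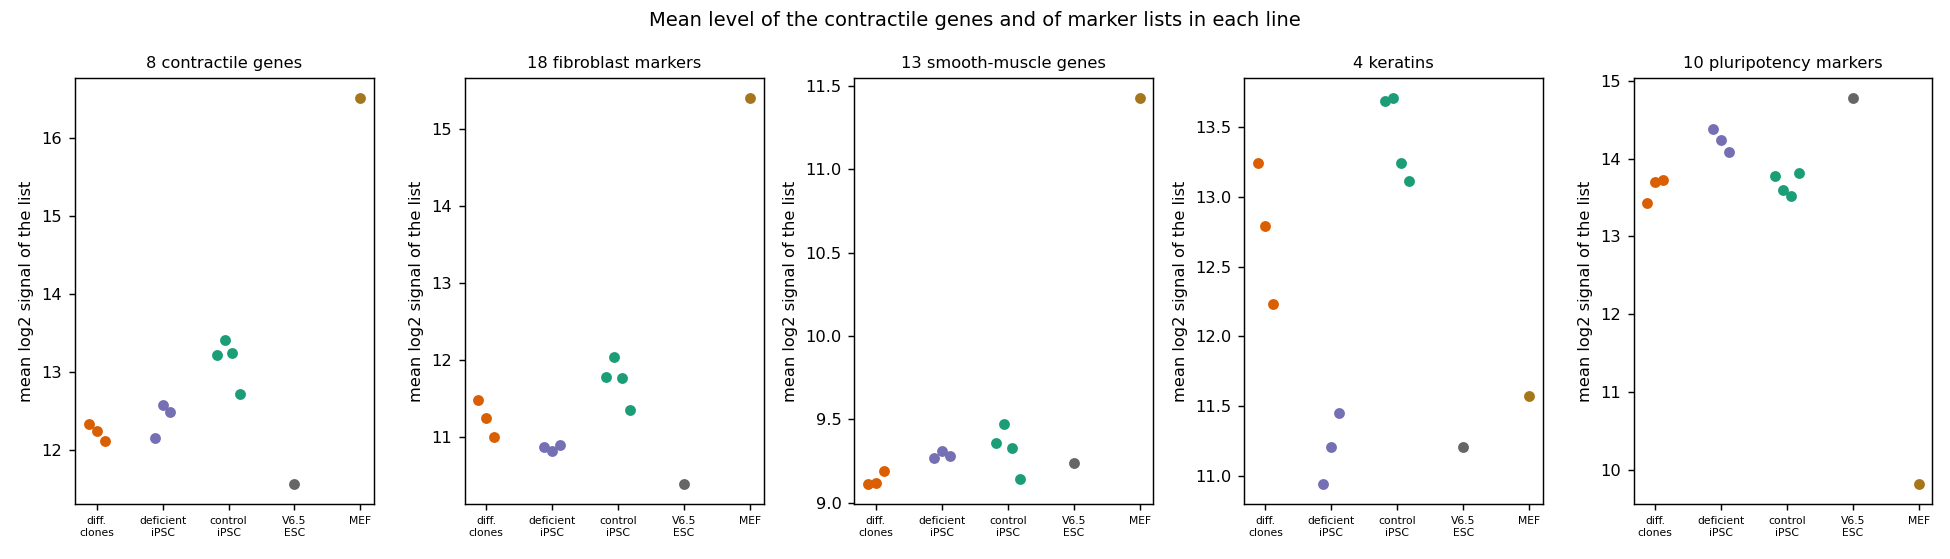
Mean log2 signal of the 8 contractile genes and of 4 marker lists in each line of each group; points are lines, and V6.5 ESC and MEF are 1 RNA each. Control iPSC were above both deficient states for the contractile genes, with line 6 the lowest control for these genes and for the fibroblast markers.

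Over the 10 iPSC values (3 differentiating, 3 deficient and 4 control), which share arrays and scan days, the correlation between pairs of the 8 genes ran from 0.194 to 0.985 with a median of 0.802 over 28 pairs, as a description. Tagln and Tpm2 were the most alike, and Acta2 and Cnn2 spanned the least, 0.43 and 0.88, all on the probe used for the gene. Among 4173 genes whose values spanned at least 1, the genes most like Tagln were Antxr2 (r = 0.993), Ttyh3 (0.989), Tpm2 (0.985), Lypd6b (0.983) and Itga8 (0.98). Those most like Cnn1 were Cx3cl1 (r = 0.985), Mgp (0.98), Tpm1 (0.962), an unnamed transcript CJ243128 (0.958) and Sema3e (0.953). Of these 10, Lypd6b and Sema3e were lower in MEF than in control iPSC. For Acta2 the most alike, of 4174 genes, were Sec14l4 (r = 0.923), Fbxl7 (0.92), Pgap6 (0.92), Bcam (0.9) and Prodh (0.895), and of these 5 only Fbxl7 was higher in MEF than in control iPSC.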

How the data were processed

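Agilent scanner files of 18 two-colour arrays held intensity values per spot and channel, deposited as scanned; a deposited table of log2 ratios, made by the authors with limma per the submitters' processing notes (version not given in the sources used here), served as an alternative. Its column medians lay between -0.0106 and 0.0071, and its direction, deficient over the other RNA, was read from the values. Mean intensities were corrected with normexp (offset 50), normalised by loess within and Aquantile between arrays (limma 3.58.1, R 4.3.3), leaving out control and outlier spots. Probes well above background in a share of at least 0.5 of the channels of 1 RNA kind were kept (36964), and the brightest stood for its gene.

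A fit of 12 line-state terms and a dye term over 36 channels gave 1 log2 value per line, and lines were compared with limma; V6.5 ESC and MEF were compared through within-array ratios of all 18 arrays. Channels were first weighted by their correlation within a spot (0.779). On simulated data that weighting called too many unchanged genes in the comparisons made across scan days. After first results had been seen, channels were therefore weighted equally, which held the error rate in the simulated data. Those data held no effect of scan day, slide or array partner, so they do not show the error rate under such effects. The weighted fit is an added alternative. Where nothing says that samples came from separate cultures, p-values measure only the spread between these samples.

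The genes, lists and naming rule (all 8 genes in every comparison; at most 3 called genes with the largest change per other list; the 5 most alike genes) were chosen with earlier results of these data known, and a few other genes were named after their values were seen. Gene names were updated through RefSeq, which held 18749 of 24968.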

Additional observations from a re-analysis of the deposited data

Results flagged for a closer look

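Tagln stood out among the 4 control lines: line 6 read 14.62, while lines 3, 4 and 5 read 15.47, 15.53 and 15.50, so that the gap from line 6 to the nearest line was 0.937 of the whole range. The limit for such a flag is passed by chance in about 1 of 20 groups, and the rate for a gap of this size was not computed. The 8 genes examined were correlated with each other, so they are not separate looks, and 1 of them passed this limit.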

How the results depend on the processing

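Scan day is the same split as deficient against control and as differentiating against deficient, V6.5 ESC and MEF are 1 RNA each, and p-values from 3 clones move when 1 is left out. All 8 genes fell against MEF under every alternative run. In the other comparisons the values below changed direction, count or call, and their causes were not tested beyond what the alternative itself removes.

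With deficient readings beside V6.5 ESC only, Acta2 (-0.11) and Cnn2 (-0.34) reversed in deficient against control iPSC, and Myl9 (0.36) and Tpm1 (0.01) in differentiating against deficient; 0 of the 8 genes were then called lower in the second. With readings beside MEF only, Tpm1 (0.23) reversed in deficient against control, where 2 genes were called lower, and Tpm2 (-0.49) in differentiating against deficient, where 6 were. With the mean of all probes, Acta2 (-0.16) reversed and Cald1 (-0.4, limma adjusted p = 0.0845) lost its call in deficient against control, where Tpm1 (-1.04) gained one, Cald1 (-0.37) and Tagln (-0.13) in differentiating against deficient, where 0 genes were called higher, and 2 were called lower in differentiating against control, where Tagln (-1.14) and Cald1 (-0.77) lost their calls. Without normalization between arrays, Cald1 (-0.18), Tagln (-0.1) and Tpm2 (-0.16) reversed in differentiating against deficient, where 0 of all genes were called (9127 at an unadjusted p under 0.05) and 0 of the 8 in either direction; in deficient against control 10 of all genes and 0 of the 8 were called, and 90% of the calls were higher, against 33.7%; in differentiating against control 118 genes and 2 of the 8 were called. In differentiating against deficient its all-gene median was -0.52, against 0.07. With the scanner's processed signals, Tagln (-0.05) and Tpm2 (-0.01) reversed in differentiating against deficient, where 0 genes were called higher, and 7003 of all genes were called against V6.5 ESC, of which 48.2% were higher, against 67.3%.

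Counts of all genes called were 7387 for deficient against control, 584 for differentiating against control, 7736 for differentiating against deficient, and 3400 and 15430 against V6.5 ESC and MEF. With channels weighted by the intraspot correlation, they were 11549, 1227 and 13097 for the first 3. For differentiating against control, 1 fit of all 10 iPSC values gave 1045, and arrays taken as replicates gave 11679 (within-array ratios) and 11659 (deposited table), with 8 of the 8 genes lower in both; these treat the arrays of 1 clone as independent. The deposited table gave 7518 against V6.5 ESC, 44.9% of them higher.

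Leaving out 1 line at a time, counts ran from 3745 to 8767 for deficient against control, 0 to 1521 for differentiating against control, 1 to 9979 for differentiating against deficient and 1591 to 4370 against V6.5 ESC. The number of the 8 genes called lower ran from 4 to 6 in deficient against control, where Myl9 lost its call in 5 of 7 fits, 0 to 7 in differentiating against control and 0 to 3 in differentiating against deficient; the number called higher ran from 0 to 1 in differentiating against deficient and 1 to 4 against V6.5 ESC. In deficient against control Acta2 ran from -0.06 to 0.08 and Cnn2 from -0.02 to 0.25, and against V6.5 ESC Cald1 ran from -0.25 to 0.08. In differentiating against deficient Myl9 ran from -0.22 to 0.1, Tagln from -0.11 to 0.25 and Tpm2 from -0.13 to 0.25.

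With the labels' replicate block in deficient against control, 5 of the 8 genes and 8416 of all genes (33.7%) were called and no call on the 8 genes changed; no label says that a shared number marks a shared culture or day. The clones are the same lines in differentiating against deficient; without that pairing 1 gene rose and 3 fell.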
